A study of Mus musculus with 2 samples.

Results

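The genes described here are the non-erythroid members of the spectrin, ankyrin, protein 4.1 and adducin families: Sptan1 (alpha spectrin), Sptbn1 (beta spectrin), Ank2 and Ank3 (ankyrins), Epb41l1, Epb41l2, Epb41l3 and Epb41l5 (4.1-like proteins) and Add3 (an adducin). They were chosen by name, and all 9 were found among the 55536 mouse genes of the main table. The study sequenced polyadenylated RNA, with paired ends, from G1E-ER4, an established mouse erythroid line of Gata1-null origin in which GATA1 activity comes back through a fusion protein that estradiol switches on. Its single group was exposed to 17beta-estradiol at 10 nM for 24 h, and 2 libraries were made, numbered 1 and 2 as biological replicates in the labels. Both carry the same biosample record, and the labels do not say whether the cultures were separate, so their spread may be technical. There was no untreated sample, so every value below is a level in treated cells and no condition was compared.

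Spectrins are long rods built of alpha and beta chains that pair side by side, and with short actin filaments they form a net beneath the plasma membrane. Ankyrins tie beta spectrin to membrane proteins, 4.1 proteins fasten the actin junctions of the net to the membrane, and adducins cap the actin filaments and recruit spectrin to them. The red cell builds this skeleton from a set of genes that includes Sptb, Ank1, Epb41, Add1 and Add2, called red cell counterparts below. Some of these, such as Add1 and Epb41, are not particular to red cells. The paralogs named above serve neurons, epithelia, muscle and other cells. The levels of both sets can be read side by side within a library for beta spectrin, ankyrin, protein 4.1 and adducin, the 4 families compared below.

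The libraries differed in depth, with 71485617 expected counts (estimated fragments assigned to genes) in replicate 1, which is 5.06 times the 14121747 of replicate 2. For a gene at 0 the limit taken was 3 counts, which in CPM (counts scaled to library size) is 0.042 in replicate 1 and 0.212 in replicate 2. These limits, and the intervals on counts below, cover counting error only. TPM, the unit for levels, is transcript abundance after correction for length, scaled to a fixed total. All 10 erythroid markers examined, Gata1, Klf1 and adult globins among them, were at 1 TPM or more in both libraries, as were 1 of 8 neuronal, 0 of 6 epithelial, 0 of 7 muscle, 0 of 7 fibroblast and endothelial, 0 of 6 myeloid, 0 of 6 lymphoid and 3 of 6 megakaryocyte markers (Gp9, Gp1ba and Itga2b). All 6 epithelial markers had no count at all, and so had 7 of the 8 neuronal ones. Of 22028 protein-coding genes, 33.1% were at 1 TPM or more in both libraries and 40.6% had no count in either. Tubb3, a tubulin gene, was the neuronal marker present, at 4.49 and 9.36 TPM. In bulk RNA, fewer cells that express a gene and less RNA per cell cannot be told apart.

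Add3, the gamma adducin gene, was the only one of the 9 paralogs at 1 TPM or more in both libraries (1 of 9, against 33.1% of 22028 protein-coding genes). All 5 red cell counterparts examined passed the same threshold, and none of 4 further genes of these families (Sptbn4, Sptbn5, Epb41l4a and Epb41l4b) did. Epb41l2 and Epb41l3 had no expected count in either library, 2 of 9 against 40.6% of protein-coding genes. In replicate 1 alone, 3 of the 9 reached 1 TPM, namely Add3, Ank2 and Epb41l5, against 37.1% of protein-coding genes, and in replicate 2 only Add3 did, against 34.6%. The replicate 1 count is near that background. The plot of levels by library shows every counterpart right of the threshold, and of the paralogs only Add3 right of it in both.

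**Figure D1:**
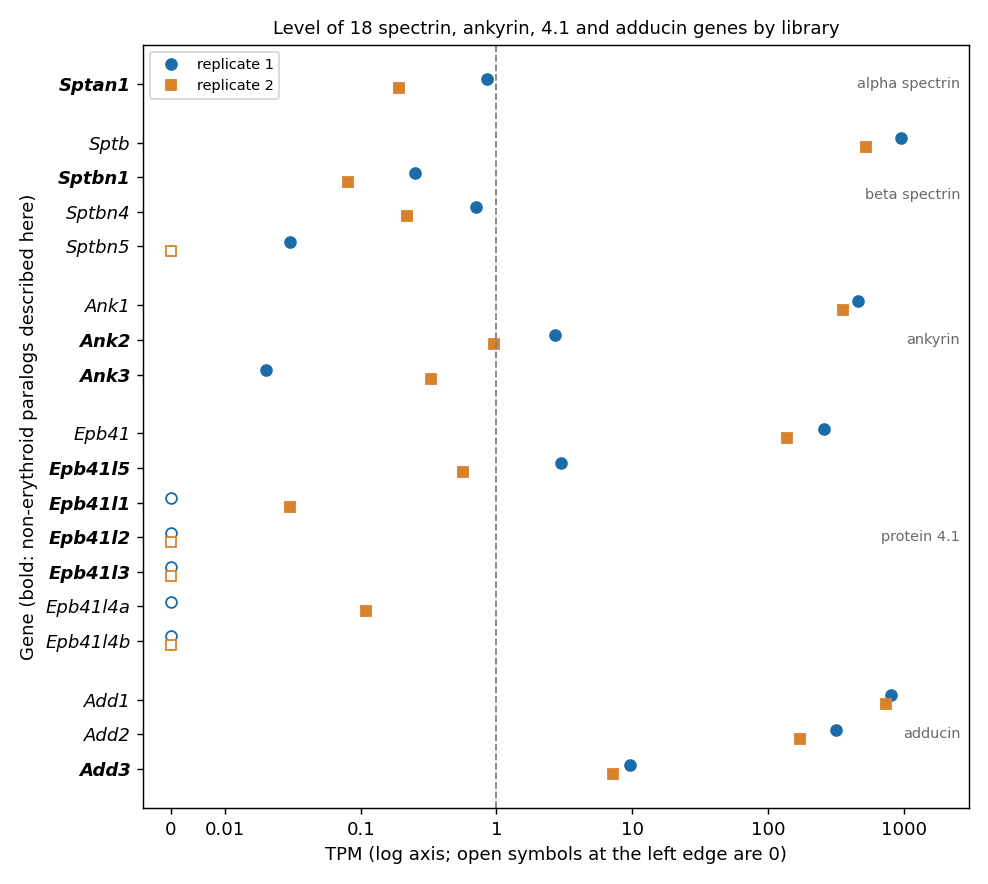
TPM of 18 genes on a log axis, with circles for replicate 1, squares for replicate 2, open symbols for 0 and a dashed line at 1 TPM. Among the paralogs in bold, Add3 at 9.71 and 7.21 TPM lies right of the line in both libraries, and Sptb, Ank1, Epb41, Add1 and Add2 all lie above 100 TPM.

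Ordered by mean level, Add3 (8.46 ± 1.77 TPM, SD, n = 2) came before Ank2 (1.82 ± 1.22), Epb41l5 (1.79 ± 1.73), Sptan1 (0.520 ± 0.467), Ank3 (0.175 ± 0.219), Sptbn1 (0.165 ± 0.120) and Epb41l1 (0.015 ± 0.0212), with Epb41l2 and Epb41l3 at 0. The ranges of neighbours in that order, taken over both libraries, overlapped except for Add3 over Ank2 and Sptbn1 over Epb41l1. Epb41l5 also lay above Sptan1 within each library, although their ranges overlapped. Among protein-coding genes Add3 stood at the 76.6th percentile of mean TPM, Ank2 at the 66.1st and Sptbn1 at the 56.6th. The medians of the 9 paralogs were 0.25 and 0.19 TPM, compared with 459 and 355 TPM for the 5 counterparts and 0.01 and 0.02 TPM over all protein-coding genes.

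Gamma adducin is the widely expressed partner that adducin alpha can take in place of beta adducin, which Add2 encodes. Add3 (ENSMUSG00000025026.15, chr19:53140443-53247399, plus strand, mm10) was at 9.71 TPM on 2498 counts in replicate 1 and at 7.21 TPM on 253 counts in replicate 2. The authors' posterior intervals (at a level not given in the sources used here) ran from 9.11 to 10.5 TPM and from 6.10 to 9.46 TPM. Of the paralogs with counts in both libraries, Add3 was the one whose TPM values came closest in ratio, and the one with the most counts behind it. Alpha adducin (Add1) was higher by 82.3 times in replicate 1 and 103 times in replicate 2, and Add2 by 32.7 and 23.7 times. Add3 held 0.862% and 0.783% of all adducin TPM, a mean of 0.823% ± 0.0557 (SD, n = 2). The rest belonged to Add1 and Add2, and Add1 is not particular to red cells.

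The start of Add3 transcripts was nearly always the same. RefSeq on this build lists 3 Add3 start sites, and the 4 annotated transcripts that begin near the second of them (53142756 to 53143005) accounted for 99.1% of Add3 TPM in replicate 1 and for 98.5% in replicate 2. The 7 transcripts that begin at or after the upstream site (53140443 to 53141597) held 0.927% and 1.53%, and the transcript at the third site had no expected count. In the table quantified from reads the second site's transcripts held 99.6% and 98.9% of Add3 counts. The 250 bases before the used site and before the little-used upstream site are shown because the transcripts that follow them differed so much in level, with capitals marking every GC box, GGGCGG on either strand.
Add3 second start site, chr19:53142506-53142755, plus strand, mm10, RefSeq: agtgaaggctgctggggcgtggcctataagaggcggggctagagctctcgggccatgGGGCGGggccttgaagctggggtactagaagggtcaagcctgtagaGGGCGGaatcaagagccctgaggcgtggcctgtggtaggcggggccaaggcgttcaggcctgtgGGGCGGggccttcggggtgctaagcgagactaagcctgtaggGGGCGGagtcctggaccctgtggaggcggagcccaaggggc
Add3 upstream start site, chr19:53140193-53140442, plus strand, mm10, RefSeq: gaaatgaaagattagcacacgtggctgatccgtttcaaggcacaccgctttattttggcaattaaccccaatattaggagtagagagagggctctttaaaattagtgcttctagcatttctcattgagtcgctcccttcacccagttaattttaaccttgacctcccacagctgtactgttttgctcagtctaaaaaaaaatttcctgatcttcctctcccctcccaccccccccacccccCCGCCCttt
The window of the used site held 4 GC boxes, which begin 193, 147, 83 and 41 bases before the start, and 67.2% G and C. The upstream window held 1 GC box and 46.0% G and C. Of 32851 RefSeq windows of this length, 32.7% held a GC box and 4.09% held at least 4. Neither Add3 window held a GATA box, searched on both strands as AGATAA with T also allowed as the first letter and G as the last, which 26.5% of all windows hold. These are letter matches and say nothing of what binds there.

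Add3 transcripts also differ in a coding exon of 96 bases near the end of the gene, which lengthens the reading frame from 2022 to 2118 bases. It is shown in capitals with 15 bases of the neighbouring exons on each side. The reason is that, among transcripts that span it, those that skip it held nearly all the TPM.
Add3 alternative exon, chr19:53244310-53244405, plus strand, as in Add3-213: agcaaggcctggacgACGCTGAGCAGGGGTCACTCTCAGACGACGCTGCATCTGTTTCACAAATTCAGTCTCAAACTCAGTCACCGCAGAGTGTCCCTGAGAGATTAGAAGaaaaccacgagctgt
Add3 junction without the exon: agcaaggcctggacgaaaaccacgagctgt
Transcripts with this exon made up 3.03% and 1.97% of the TPM of all Add3 transcripts that span it. In expected counts that was 70.4 with against 2401 without in replicate 1, and 5.48 against 243 in replicate 2. The table quantified from reads gave 1.18% and 0.854% of counts with the exon. All these are model-based assignments over whole transcripts, not counts of junction reads.

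Both libraries thus gave Add3 the same start site and the same choice of exon, but they split its transcripts differently. Add3-202, of 4297 bases, made up 82.0% of Add3 TPM in replicate 1 and 42.4% in replicate 2. Add3-215, of 2985 bases with a reading frame of the same length, held 0.515% and 33.6%. In counts, Add3-215 had 10.6 of 2498 in replicate 1 and 85.4 of 253 in replicate 2. The table quantified from reads gave it 1.55% and 15.9% of counts, a smaller difference in the same direction. Add3-214, a 380-base model with a coding frame of 213 bases, held 14.5% and 22.5% of TPM on only 23.3 and 5 counts. The plot of Add3 transcripts by scale shows that this last share nearly vanishes in counts.

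**Figure D2:**
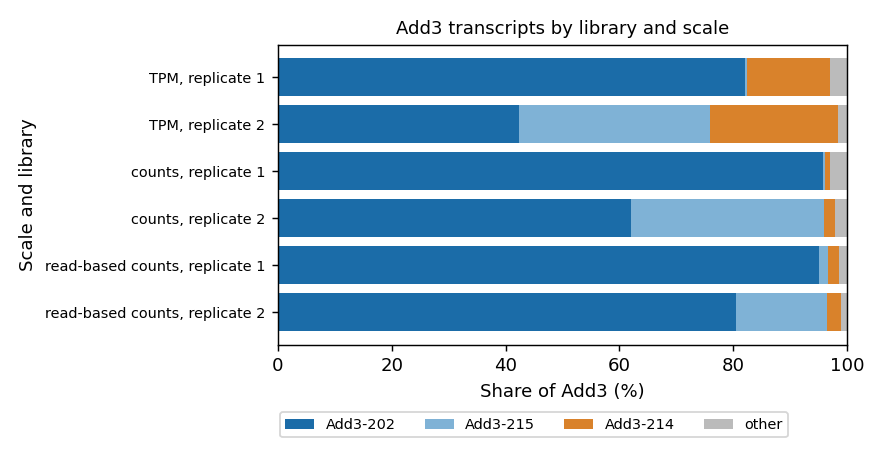
Share (%) of Add3 held by Add3-202, Add3-215, Add3-214 and all its other transcripts, in TPM, in expected counts and in counts of the table made from reads, for each library. Add3-215 is wide in replicate 2 on each scale (33.6% of TPM) and narrow in replicate 1 (0.515% of TPM), while Add3-214 is wide in TPM only.

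Sptan1 (ENSMUSG00000057738.13, chr2:29965560-30031451, plus strand), which encodes the alpha chain of most nucleated cells, was at 0.85 TPM on 85 counts in replicate 1 and 0.19 TPM on 18 counts in replicate 2. It was below the threshold of 1 TPM in both libraries. Annotation M4 put it at 0.87 and 0.78 TPM on the same counts, and the table made from reads, rescaled over nuclear protein-coding genes, at 0.605 and 0.313 TPM.

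The Sptan1 level of replicate 1 rested on a short model. Sptan1-207, a 457-base transcript annotated as a retained intron with no reading frame, accounted for 83.5% of Sptan1 TPM in replicate 1 on 15.6 of its 85 counts, and had none in replicate 2. Over transcripts of at least 1000 bases Sptan1 was at 0.12 and 0.19 TPM, so that replicate 2 was then the higher one. The full-length forms differ by 2 small exons, shown in capitals with 15 bases of coding sequence on each side, since the libraries were assigned to different forms.
Sptan1 exon of 60 bases, chr2:30001100-30001159, plus strand, as in Sptan1-202: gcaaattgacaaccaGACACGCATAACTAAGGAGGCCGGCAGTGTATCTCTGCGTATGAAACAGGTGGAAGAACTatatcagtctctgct
Sptan1 exon of 15 bases, chr2:30014158-30014172, plus strand, as in Sptan1-204: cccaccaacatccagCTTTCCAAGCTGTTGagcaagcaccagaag
In replicate 1 transcripts with the 60-base exon had 41.9 counts and those without it 26.7. All 18 counts of replicate 2 went to Sptan1-204, which lacks the 60-base exon and has the 15-base one. The table made from reads gave 65.0 against 30.9 counts in replicate 1 and 0 against 27.5 in replicate 2. With so few fragments spread over the 7958 bases of Sptan1-204, whether the libraries truly differ in these exons was not tested.

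Of the 4 families compared, beta spectrin had the lowest share held by the paralogs described here, which for this family is Sptbn1 alone. Sptbn4 and Sptbn5 count in the family total but not in that share. Sptbn1 (ENSMUSG00000020315.18, chr11:30099395-30268175, minus strand), the beta chain that pairs with Sptan1 in most tissues, was at 0.25 TPM on 139 counts and 0.08 TPM on 3 counts. Sptb, its red cell counterpart, was at 959 and 523 TPM, or 3835 and 6538 times as high. Sptbn1 held 0.0261% and 0.0153% of beta spectrin TPM. The replicate 2 ratio and share rest on 3 counts, and the table made from reads gave shares of 0.0345% and 0.0490%, the reverse order. The neuronal-type gene Sptbn4 was above Sptbn1 in both libraries, at 0.71 and 0.22 TPM, while Sptbn5 was at 0.03 and 0 TPM. In replicate 1 the fragments of Sptbn1 fell about equally on its long and its short form, with 67.1 counts on Sptbn1-202 (reading frame of 7089 bases) and 65.0 on Sptbn1-203 (6462 bases). In replicate 2 all 3 counts lay on Sptbn1-206, a retained intron of 3084 bases, so the main table gave no count there to a Sptbn1 transcript with a reading frame. The table made from reads instead put 18.2 of its 42.0 replicate 2 counts on Sptbn1-201 and 18.1 on Sptbn1-203, both with a reading frame. Sptbn1 overlaps 2 genes on the opposite strand, as all the paralogs but Sptan1 and Epb41l5 overlap at least 1, and the strand setting of the authors' counting was not given in the sources used here.

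Ankyrin-B and ankyrin-G, the products of Ank2 and Ank3, place ion channels, transporters and adhesion proteins in the membranes of heart, neuron and epithelial cells. Ank2 (ENSMUSG00000032826.17, chr3:126921612-127499350, minus strand) was at 2.68 TPM on 181 counts in replicate 1 and 0.96 TPM on 28 counts in replicate 2, the latter just under the threshold of 1 TPM. Ank3 (ENSMUSG00000069601.14, chr10:69398773-70027438, plus strand) was at 0.02 TPM on 4 counts and 0.33 TPM on 7 counts. It was the only paralog with at least 3 counts in both libraries whose TPM was higher in replicate 2, and its CPM was higher there by 8.86 times (95% exact binomial interval 2.25 to 41.3). Ank1, the red cell ankyrin, was at 459 and 355 TPM, and Ank2 and Ank3 together held 0.585% and 0.362% of ankyrin TPM. Replicate 2 had the higher share in counts, 0.109% (95% Wilson interval 0.0948% to 0.126%) beside 0.150% (0.108% to 0.209%), over transcripts of at least 1000 bases, 0.131% and 0.239% of TPM, and in the table made from reads, 1.04% and 3.24% of TPM. The order of the libraries in this share therefore depends on the scale. None of the 47 annotated Ank3 transcripts had an expected count in both libraries, with Ank3-201 holding the 4 of replicate 1 and Ank3-218, which has no reading frame, 3 of the 7 in replicate 2. The table made from reads instead put 26.6 and 69.0 counts on a single coding transcript, Ank3-231.

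Most Ank2 TPM of replicate 1 lay on a short model that shares its bases with a longer transcript. Ank2-226, a model of 1 exon and 339 bases, held 72.8% of Ank2 TPM in replicate 1 on 26.5 of 181 counts, and 46.4% in replicate 2 on 1.15 of 28 counts. Of its 339 bases (chr3:127498663-127499001), 334 lie inside the first exon of Ank2-218, a transcript of 4268 bases that held 7.09% and 52.6% of TPM on 57.9 and 25.9 counts. A fragment wholly within those bases could belong to either model. It could also belong to a longer single-exon retained intron that covers them, which had 8.38 and 0 counts. In TPM such a fragment weighs most on the shortest model. The stretch that codes in Ank2-218 is shown because it also belongs to Ank2-226, with the start codon of Ank2-218 in capitals.
Ank2 shared stretch, chr3:127498668-127498739, minus strand: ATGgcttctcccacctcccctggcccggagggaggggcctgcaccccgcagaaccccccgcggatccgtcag
It is 72 bases long with 73.6% G and C. Over transcripts of at least 1000 bases, Ank2 was at 0.58 and 0.52 TPM, below the threshold in both libraries, in place of 2.68 and 0.96 TPM. The table made from reads, rescaled over nuclear protein-coding genes, put Ank2 at 3.98 and 8.07 TPM, with replicate 2 the higher.

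Of the 4 paralogs among the 4.1-like genes only Epb41l5 was covered by more than 2 counts. Its product takes part in epithelial polarity and in the turnover of cell adhesion. Epb41l5 (ENSMUSG00000026383.14, chr1:119545037-119649000, minus strand) was at 3.01 TPM on 740 counts in replicate 1 and 0.57 TPM on 45 counts in replicate 2. The posterior intervals, 2.67 to 3.61 TPM and 0.70 to 1.78 TPM, did not overlap. Epb41, the red cell 4.1R gene, was higher by 86.0 and 241 times, at 259 and 137 TPM. The 4 paralogs held 1.15% and 0.435% of the family's TPM, a total that also includes Epb41l4a and Epb41l4b. In counts without length correction their share was 0.813% (95% Wilson interval 0.757% to 0.874%) and 0.877% (0.660% to 1.16%), and these intervals overlap.

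A short model again held the largest share of TPM in replicate 1. Epb41l5-205, of 615 bases, held 47.8% of the gene's TPM there on 48.4 of 740 counts, and none in replicate 2. Most counts went to Epb41l5-202 (431 and 37.2), whose reading frame of 2193 bases has 9 coding exons that Epb41l5-208 lacks. Epb41l5-208, with 238 and 7.81 counts, ends instead in a coding exon that Epb41l5-202 lacks. That exon is shown in capitals after 15 bases of the exon before it.
Epb41l5-208 last coding exon, chr1:119595882-119596059, minus strand: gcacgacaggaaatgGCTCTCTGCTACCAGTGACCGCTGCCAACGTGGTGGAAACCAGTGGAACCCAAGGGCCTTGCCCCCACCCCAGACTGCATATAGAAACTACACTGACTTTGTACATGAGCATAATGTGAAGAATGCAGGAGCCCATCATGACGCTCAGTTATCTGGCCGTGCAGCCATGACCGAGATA
Transcripts for the long and the short form of the protein were thus assigned counts in each library, and the long one, Epb41l5-202, led with 58.2% and 82.6% of counts. Transcripts of at least 1000 bases gave Epb41l5 levels of 1.57 and 0.57 TPM.

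The remaining 4.1-like genes were at or near 0. Epb41l1 (ENSMUSG00000027624.19, chr2:156420909-156543214), the 4.1N gene of neurons, had 0 and 2 counts, both on Epb41l1-204. Epb41l2 (ENSMUSG00000019978.16, chr10:25359798-25523519), the broadly expressed 4.1G gene, and Epb41l3 (ENSMUSG00000024044.18, chr17:69075683-69289989), the 4.1B gene, had 0 and 0. Epb41l4a and Epb41l4b, which belong to the same family, were at 0 TPM in replicate 1 and at 0.11 and 0 TPM in replicate 2. The table made from reads gave Epb41l2 2.03 and 17.0 counts and Epb41l3 0 and 9.41 counts, of which 7.41 lay on a single-exon model with no reading frame, Epb41l3-210.

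For genes without counts the deposited posterior mean TPM was not 0, and it was higher where more transcripts are annotated. Epb41l2, with 20 annotated transcripts, had a posterior mean of 0.33 TPM in the deeper library and 1.78 TPM in the other, and Epb41l3, with 18, had 0.23 and 1.26 TPM. Their replicate 2 intervals, 0.885 to 2.76 and 0.534 to 2.05 TPM, lay wholly above 0 although no fragment was assigned. Over the 8947 protein-coding genes with no count in either library, the median posterior mean in replicate 2 was 0.06 TPM with 1 annotated transcript, 0.42 with 4 to 7, 0.96 with 8 to 15 and 1.77 with 16 or more. The rank correlation across these genes was 0.74 in replicate 2 and 0.72 in replicate 1, a description over genes that share a library. Epb41l2 lay close to the medians of genes with 16 or more transcripts (0.34 and 1.77 TPM), and Epb41l3 below them. In replicate 2 the maximum likelihood value of every paralog but Add3 lay below its interval, as with 0.19 TPM against 0.704 to 2.37 TPM for Sptan1. By the posterior mean 4 of the 9 paralogs would have passed 1 TPM in both libraries, against 35.5% of protein-coding genes, and 7 in replicate 2, against 41.8%.

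**Figure D3:**
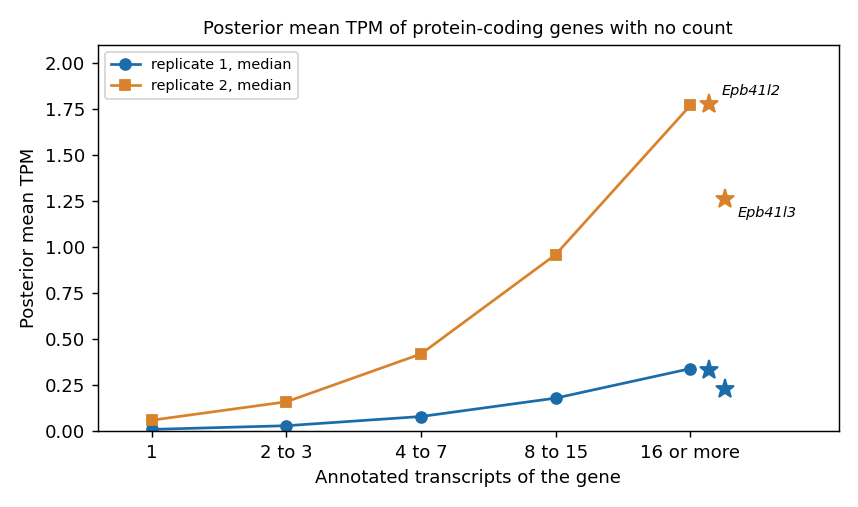
Posterior mean TPM of protein-coding genes with no expected count in either library, by number of annotated transcripts, with lines for the median in each library and stars for Epb41l2 and Epb41l3. The replicate 2 median rises from 0.06 to 1.77 TPM, and the stars of replicate 2 lie at 1.78 and 1.26 TPM.

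Short transcripts weighed more in TPM than in counts. Transcripts under 1000 bases made up 34.4% and 22.1% of the summed TPM of the 9 paralogs, but 3.23% and 1.73% of their counts. Over the protein-coding genes compared, 7015 in replicate 1 and 5134 in replicate 2, the median share per gene was 19.4% and 10.8% of TPM. In counts it was 4.04% and 1.98%. A median per gene is not the same measure as the pooled share of the paralogs. The effective length of a gene, the mean of its transcripts weighted by abundance, moved with this, from 1385 bases in replicate 1 to 7828 in replicate 2 for Sptan1 and from 931 to 2364 for Ank2. The plot of short transcripts shows the gap between both scales gene by gene.

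**Figure D4:**
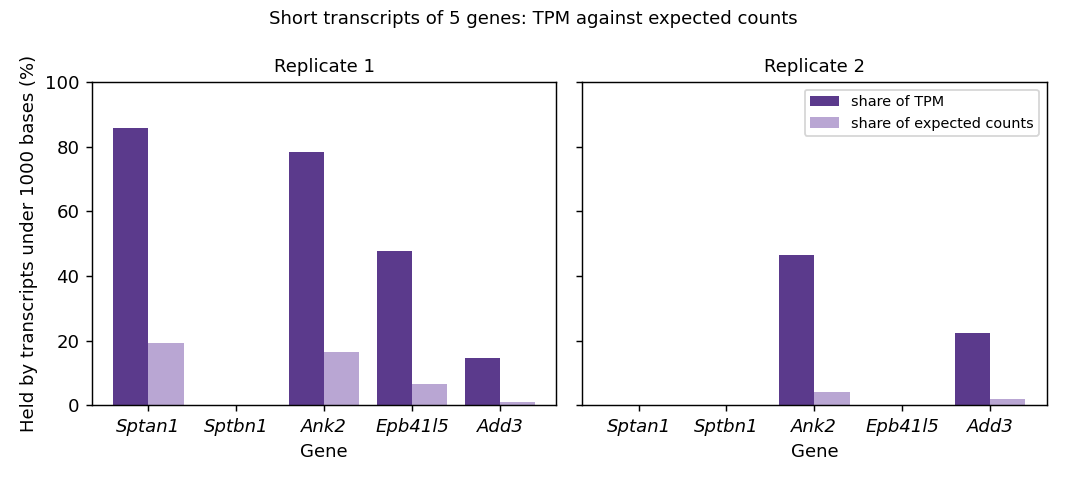
Share (%) of TPM (dark) and of expected counts (light) held by transcripts under 1000 bases, for the 5 paralogs with a mean of at least 50 counts, in each library. In replicate 1 Sptan1 reaches 85.9% of TPM against 19.3% of counts and Ank2 78.4% against 16.4%, while Sptbn1 is at 0 on both scales.

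With this in view the libraries were set against each other on both scales. Of the 9 paralogs, 5 had a mean of at least 50 counts, and 4 of these 5 were over 2-fold apart in TPM, against 50.9% of 9029 genes past the same filter. All 4 were lower in replicate 2, a direction that 35.4% of those genes took. The filter rests largely on replicate 1, the deeper library, where all 5 had most of their counts. Ank3, higher in replicate 2 in TPM, had 4 and 7 counts and did not pass. The shared direction is therefore not independent of the filter. In CPM, which takes no account of length, 2 of the 5 were over 2-fold apart (Sptbn1 and Epb41l5), both lower in replicate 2, against 51.0% of genes in either direction and 41.3% lower. Sptan1 is the clearest case, at 2.16 lower on the log2 scale in TPM and 0.10 higher in CPM, with a CPM ratio of 1.07 (95% exact binomial interval 0.607 to 1.80). Sptbn1, Ank2, Epb41l5 and Add3 had log2 TPM differences of -1.64, -1.48, -2.40 and -0.43, and log2 CPM differences of -3.19, -0.35, -1.70 and -0.96. The CPM ratio was 0.308 (0.223 to 0.416) for Epb41l5, 0.513 (0.449 to 0.584) for Add3 and 0.109 (0.022 to 0.326) for Sptbn1. The CPM of each was lower in replicate 2 beyond counting error, as set against a ratio of 1. The median gene past the filter was also lower there, at -0.66 on the log2 scale. In the table made from reads, over nuclear protein-coding genes, Add3 was instead about level, at 14.6 and 14.8 TPM. The median over these 5 was -1.64 in TPM and -0.96 in CPM, against -0.42 and -0.66 over all genes past the filter and -0.87 and -1.09 over the 5 red cell counterparts.

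**Figure D5:**
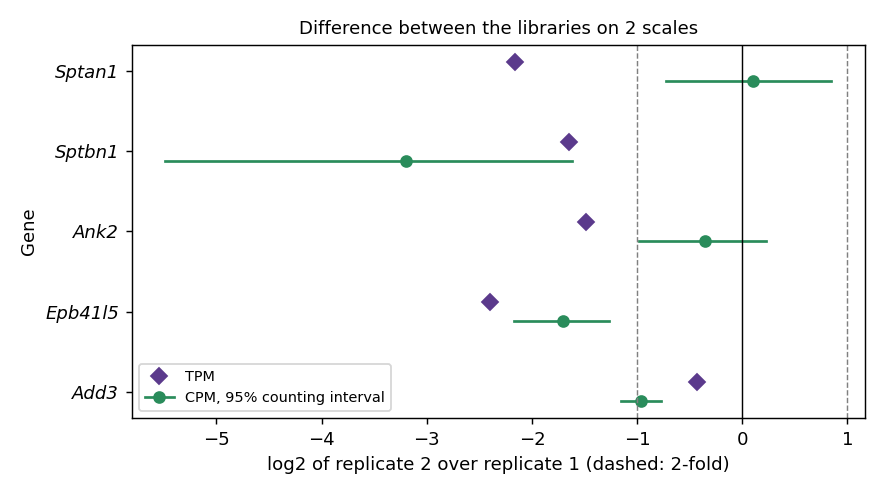
Log2 of replicate 2 over replicate 1 for the 5 paralogs with a mean of at least 50 counts, as diamonds for TPM and circles for CPM with the 95% exact binomial interval, and dashed lines at 2-fold. Sptan1 moves from -2.16 in TPM to 0.10 in CPM, whereas Epb41l5 is left of the 2-fold line on both scales.

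The table made from reads assigned more fragments to these genes than the main table did. Summed over the 9 paralogs it held 6000 against 3647 counts in replicate 1 and 1495 against 356 in replicate 2, which is 1.65 and 4.20 times as many. For the 5 red cell counterparts it was 1.21 and 1.88 times, and the median over 8526 protein-coding genes past the count filter was 1.41 and 2.53 times. In replicate 2 Sptbn1 went from 3 to 42.0 counts, Ank3 from 7 to 91.0 and Add3 from 253 to 1040. In that table nuclear protein-coding genes took up 74.1% and 23.8% of TPM, compared with 96.1% and 93.2% for the main table. The part of these differences in the paralogs' levels was not tested.

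Across the 4 families, which leave out Sptan1, the paralogs described here held on average 0.516% ± 0.0594 of TPM (SD, n = 2). In the separate libraries they held 0.558% and 0.474%, with Sptbn4, Sptbn5, Epb41l4a and Epb41l4b counted in the total only. Their share of counts was 0.358% (95% Wilson interval 0.346% to 0.370%) beside 0.335% (0.302% to 0.373%), and these intervals overlap. The table made from reads gave 0.805% and 1.39%. There the share was higher in replicate 2 for beta spectrin (0.0345% and 0.0490%), protein 4.1 (1.145% and 1.73%) and adducin (1.215% and 1.565%) as well as for ankyrin, the reverse of the order in the main TPM.

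Genes listed as partners of these paralogs were also read, though such partners need not be particular to them and may serve the red cell skeleton too. Of 18 genes for partners of the non-erythroid skeleton, 5 were at 1 TPM or more in both libraries and 6 had no count. Over protein-coding genes these shares were 33.1% and 40.6%, so both counts are near the background. The highest by mean were the calmodulin gene Calm3 (651 and 1171 TPM) and the calpain genes Capns1 (151 and 147 TPM) and Capn1 (114 and 114 TPM), whose protease cleaves spectrin. The 6 without counts were Atp1b1, Slc8a1, Cdh1, Nrcam, L1cam and Cadm1, which encode a sodium pump subunit, the sodium-calcium exchanger and adhesion proteins of cells that use these paralogs. Of 15 genes for further proteins of the red cell skeleton and its membrane anchors, 13 passed, led by Actb (1397 and 576 TPM), the anion exchanger gene Slc4a1 (725 and 484 TPM) and Dmtn (430 and 382 TPM). Epb42, the protein 4.2 gene, was the lowest at 1.25 and 0.26 TPM, and Tpm4, a tropomyosin gene at 0.47 and 1.41 TPM, was the other one below the threshold. A chosen list of 6 genes, not the whole class, covered ezrin-type and other proteins with a FERM domain, the membrane-binding module that 4.1 proteins also carry. All 6 passed, with Fermt3 (1214 and 990 TPM), Ezr (618 and 97.2 TPM) and Nf2 (62.5 and 310 TPM) highest and Msn (12.7 and 3.08 TPM) lowest. In each library every one of these 6 was above every 4.1-like paralog.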

How the data were processed

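Per the labels, 2 paired-end libraries of polyadenylated RNA formed 1 group, with replicate numbers as labelled. Per the README files deposited with them, reads were placed on mm10. The aligner, quantifiers and strand setting were not given in the sources used here. Expected counts of the authors are estimated fragments per gene or transcript, and the authors' TPM values are maximum likelihood or posterior means. The deposited percent column, the part of a gene's TPM on each transcript, was not read, since shares were recomputed from TPM. The main tables use GENCODE M21. All 55536 mouse gene identifiers matched that annotation, and all 57 list genes and 56 marker genes were found.

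Members, lists and tests were chosen with earlier results of these data known. No test between conditions was possible with 1 group and n = 2. Detection meant 1 TPM in both libraries, and 2-fold differences were counted where expected counts averaged at least 50. The code counting them was tested on simulated data. Named were all members, 5 counterparts, 4 other family genes, the 3 highest and the lowest of each other list, each member's main transcript and those with a mean share of at least 20%. A few genes that this rule covers are not reported here. Tubb3, Tpm4, 3 megakaryocyte genes and transcripts with smaller shares (Sptan1-202, Epb41l5-208, Add3-213, Add3-214, Add3-215, Ank3-231, Epb41l3-210) were named after their values were seen. Sequences are from GENCODE M21 transcripts and RefSeq promoter windows on GRCm38.p6. Of the 9 members, 7 had a window. Alternatives were M4, the table made from reads, posterior means, other scalings (on expected counts rounded to whole numbers, edgeR TMM or the size factors of DESeq2), other thresholds and each replicate alone. The read-based table over nuclear protein-coding genes, and transcripts of at least 1000 bases only, were added after seeing the data. Software was R 4.3.3 with DESeq2 1.42.0 and edgeR 4.0.16, and Python 3.11.15 with matplotlib 3.10.9, scipy 1.17.1, pandas 2.3.3 and numpy 2.4.6.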

Additional observations from a re-analysis of the deposited data

How the results depend on the processing

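No paired analysis was possible because the series holds 1 group, so no groups share replicate numbers. Add3 was the 1 of 9 paralogs at 1 TPM or more in both libraries, and the count stayed at 1 with annotation M4, a threshold of 5 TPM or transcripts of at least 1000 bases. It was 2 in the table made from reads and with TPM over nuclear protein-coding genes, 3 with both together or at 0.5 TPM, 4 with posterior means, and 1 to 3 when either replicate was left out. The median level of the paralogs, 0.175 TPM, was 1.285 with posterior means, 0.407 in the table made from reads over nuclear protein-coding genes, and 0.19 to 0.25 when either replicate was left out. The paralogs' share over the 4 families, 0.516%, was 1.10% in the table made from reads, on either scaling, 0.851% with posterior means, 0.439% with M4, 0.431% over transcripts of at least 1000 bases, 0.347% in expected counts and 0.474% to 0.558% by replicate. The share of the paralogs' TPM on short transcripts, 28.3%, was 43.1% in the table made from reads, 46.0% with posterior means, 16.9% with M4 and 22.1% to 34.4% by replicate.

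The number of paralogs over 2-fold apart, 4 in TPM, was 2 in CPM, with edgeR TMM, with DESeq2 size factors and over transcripts of at least 1000 bases, 1 with posterior means and on TPM + 1 with or without the count filter, 3 with M4 and in the table made from reads over nuclear protein-coding genes, and 5 in the table made from reads as deposited. The median log2 difference, -1.64, turned to 0.049 with posterior means and was -1.93 in the table made from reads as deposited, -0.61 with edgeR TMM, -0.53 with DESeq2 size factors, -0.64 on TPM + 1, -0.29 in the table made from reads over nuclear protein-coding genes and -0.57 over transcripts of at least 1000 bases. The sign of Sptan1 turned in CPM (0.10), with edgeR TMM (0.45), DESeq2 size factors (0.53), posterior means (0.46) and transcripts of at least 1000 bases (0.66). That of Ank2 turned with edgeR TMM (0.00083), DESeq2 size factors (0.0801), posterior means (0.33) and the table made from reads over nuclear protein-coding genes (1.02), that of Sptbn1 with posterior means (0.049), and that of Add3, -0.43, in the table made from reads over nuclear protein-coding genes (0.02). The cause was not tested. Replicate 2 had 5.06 times fewer counts, which limits every value of a gene under about 50 counts there.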
